A study of Mus musculus with 4 samples.

Results

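TrnM (mt-Tm) is the mouse mitochondrial gene of the methionine transfer RNA (tRNA), annotated at positions 3845 to 3913 of the plus strand of mitochondrial DNA (mtDNA) in GRCm38.p6. All 18 plus-strand cytosines that the deposited table lists in that interval were taken, out of 5988 positions listed for the whole mitochondrial genome. Liver RNA enriched for mitochondria was sequenced after bisulfite treatment in 2 wild-type libraries and 2 NSUN2-/- libraries, which are called knockout here. Bisulfite turns cytosine into uracil but spares 5-methylcytosine (m5C). The level of a position is its m5C reads over the sum of its m5C and C reads. The study's title asks whether NSUN2 places m5C in mitochondrial tRNAs. No agent other than the bisulfite reagent is named for either genotype. The labels give no age, sex or strain, and name no animals, so replicates of a genotype may differ for technical reasons alone. The table lists mtDNA positions only, so neither the loss of Nsun2, a nuclear gene, nor the liver origin could be checked in it.

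TrnM and its nucleotides 31 and 44 were chosen from their measured levels in these same libraries. Their levels and the difference between genotypes are therefore given as a description. No p-value is given for them, and the calls of a fit across the whole table appear only as counts beside their background.

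The mitochondrial methionine tRNA reads methionine codons both at the start and inside mitochondrial messages. The methyltransferase NSUN3 is known to methylate its wobble cytosine, the first base of the anticodon, and the dioxygenase ALKBH1 is known to oxidise that m5C further to 5-formylcytosine. Formylcytosine is not protected from bisulfite as m5C is, so the level at the wobble base counts m5C and not every modified molecule. NSUN2 is known for methylating cytosines where the variable region of cytoplasmic tRNAs meets the T arm.

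The letters of the gene that the table itself gives show where the cytosines lie. A plus-strand row marks a cytosine and a minus-strand row a guanine, and n stands for each position with no row, taken as A or U. Lower case is used except for capitals at nucleotides 31 and 44, counted from 1 at the 5′ end, chrM:3845-3913, plus strand:
TrnM: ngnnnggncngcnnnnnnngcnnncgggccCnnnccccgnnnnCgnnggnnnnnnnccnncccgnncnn
The 69 nucleotides hold 18 cytosines, 13 guanines and 38 positions of A or U.

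The arms were placed by taking nucleotide 31 as base 3 of an anticodon loop of 7, pairing 7 acceptor bases from the ends with the last base left out, and starting a T stem of 5 pairs right after nucleotide 44. The listed letters were then checked against that placement. In the anticodon stem 4 of 5 pairs were G with C and the other was A or U on both sides. In the T stem 3 of 5 pairs were G with C and the other 2 were A or U on both sides. In the acceptor stem 3 of 7 were G with C, 3 were A or U on both sides, and 1 set a guanine against A or U. No pair set 2 listed letters that cannot pair against each other. The anticodon then covers nucleotides 31 to 33, and the first pair of the T stem joins nucleotides 45 and 61. The placement gives 3 cytosines to the D arm region, 4 to the anticodon stem, 4 to the anticodon loop, 1 to the variable region, 3 to the T stem and 3 to the acceptor stem. Nucleotides 31 and 44, which are 13 nucleotides apart, fall in unpaired stretches by this construction.

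Depth on TrnM differed widely between libraries. Reads per cytosine ranged from 49 to 58 in wild type replicate 1 and from 5 to 9 in wild type replicate 2. They ranged from 25 to 36 in knockout replicate 1 and from 1 to 3 in knockout replicate 2. Nearly all knockout reads therefore came from knockout replicate 1. Genotype means weigh both libraries alike, so the few reads of knockout replicate 2 count as much in them, and its values cannot show agreement between knockout libraries. Intervals are exact (Clopper-Pearson) 95% binomial intervals and cover counting error only. No molecular identifiers are described, so copies of 1 molecule may count as separate reads and the intervals may be too narrow. The treatment of reads that match nuclear copies of mtDNA is not stated in the labels.

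The wobble cytosine, position 3875 or nucleotide 31, was methylated in most reads of every library. The methylated reads were 41 of 54 (75.9%, interval 62.4% to 86.5%) in wild type replicate 1. Wild type replicate 2 had 4 of 7 (57.1%, 18.4% to 90.1%). Knockout replicate 1 had 20 of 34 (58.8%, 40.7% to 75.4%) and knockout replicate 2 had 2 of 3 (66.7%, 9.43% to 99.2%). The genotypes overlapped, with both knockout libraries between the 2 wild-type libraries. The wild-type mean was 66.5% ± 13.3 (SD, n = 2), against a knockout mean of 62.7% ± 5.55 (SD, n = 2). The difference of -3.79 percentage points was smaller than the spread between wild-type libraries. Leaving out wild type replicate 1 reversed its sign (5.60 points), as did leaving out knockout replicate 1 (0.132 points). On summed reads the difference was -14.3 points (Newcombe interval -32.8 to 4.41 points). That interval pools the reads of a genotype, covers counting error only and leaves out the spread between libraries. Neither a loss nor its absence is therefore read from it.

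The variable region cytosine, position 3888 or nucleotide 44, was methylated in wild type and had no methylated read in the knockout. The methylated reads were 45 of 52 (86.5%, interval 74.2% to 94.4%) in wild type replicate 1. Wild type replicate 2 had 5 of 9 (55.6%, 21.2% to 86.3%). There were 0 of 33 in knockout replicate 1, which allows a level of up to 9.09% at 3 counts (exact upper bound 10.6%), and 0 of 3 in knockout replicate 2, which sets no useful limit. The levels of the genotypes did not overlap, but this rests on knockout replicate 1 alone. The interval of knockout replicate 2 reaches 70.8%, above the 55.6% of wild type replicate 2. The wild-type mean was 71.0% ± 21.9 (SD, n = 2) and the knockout mean 0, a difference of -71.0 points. Without wild type replicate 1 it was -55.6 points and without wild type replicate 2 it was -86.5 points.

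**Figure D1:**
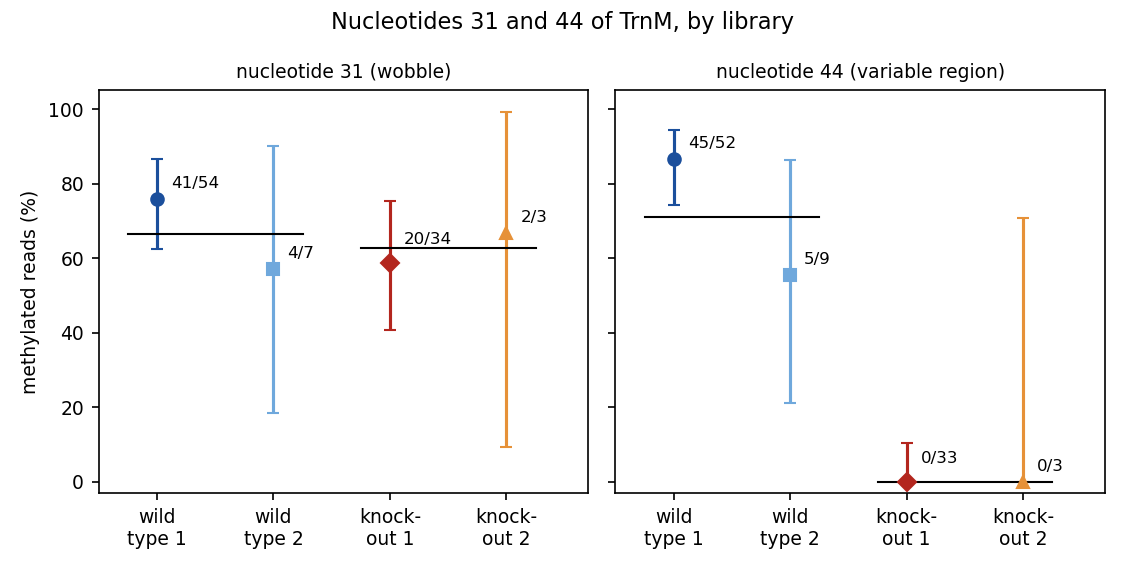
Methylated reads in percent (vertical axis) at nucleotides 31 and 44 of TrnM in the 4 libraries, with exact 95% binomial intervals as bars, methylated over total reads beside each point and black lines at the genotype means. At nucleotide 31 all 4 libraries lie between 57.1% and 75.9%, and at nucleotide 44 both knockout libraries lie at 0.

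Set against each other within a library, the levels of both cytosines differed in opposite directions in the wild-type libraries, and by 58.8 points or more in both knockout libraries. Nucleotide 44 stood 10.6 points above nucleotide 31 in wild type replicate 1, and the same difference was -1.59 points in wild type replicate 2. The mean of these differences, 4.51 ± 8.63 points (SD, n = 2), was smaller than their spread. In knockout replicates 1 and 2 nucleotide 44 differed from nucleotide 31 by -58.8 and -66.7 points, with a mean of -62.7 ± 5.55 points (SD, n = 2), where the second library had 3 reads. In knockout replicate 1, 20 methylated reads at nucleotide 31 thus stood beside 0 at nucleotide 44, with 34 and 33 reads at these cytosines.

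The remaining 16 cytosines carried few or no methylated reads. Of these, 11 had 0 methylated reads in all 4 libraries. They were all 3 of the D arm region (nucleotides 9, 12 and 21), all 4 of the anticodon stem (25, 36, 37 and 38), all 3 of the T stem (57, 58 and 61) and nucleotide 62 of the acceptor stem. With 54 to 65 summed wild-type reads each, their upper interval bounds were 5.52% to 6.60% in wild type. With 27 to 39 summed knockout reads they were 9.03% to 12.8% in the knockout. Lower levels were not detectable at this depth.

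The other 5 cytosines had 1 or 2 methylated reads, all in wild type. In wild type replicate 1 these were 1 of 52 at nucleotide 35 (1.92%), 2 of 49 at nucleotide 63 (4.08%) and 1 of 49 at nucleotide 67 (2.04%). In wild type replicate 2 they were 1 of 7 at nucleotide 29 and 1 of 7 at nucleotide 30 (14.3% at each, interval 0.361% to 57.9%). Nucleotides 29 and 30 directly precede the wobble base, and the table does not say whether both calls came from 1 read. Wild type replicate 1 had 0 of 55 and 0 of 54 methylated reads at these same nucleotides.

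The 4 cytosines between the methylated pair, nucleotides 35 to 38, had almost no methylated reads. Summed over these 4, methylated calls were 1 of 208 in wild type replicate 1, 0 of 36 in wild type replicate 2, 0 of 132 in knockout replicate 1 and 0 of 12 in knockout replicate 2. The 3 that pair in the anticodon stem, nucleotides 36 to 38, had 0 in every library.

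**Figure D2:**
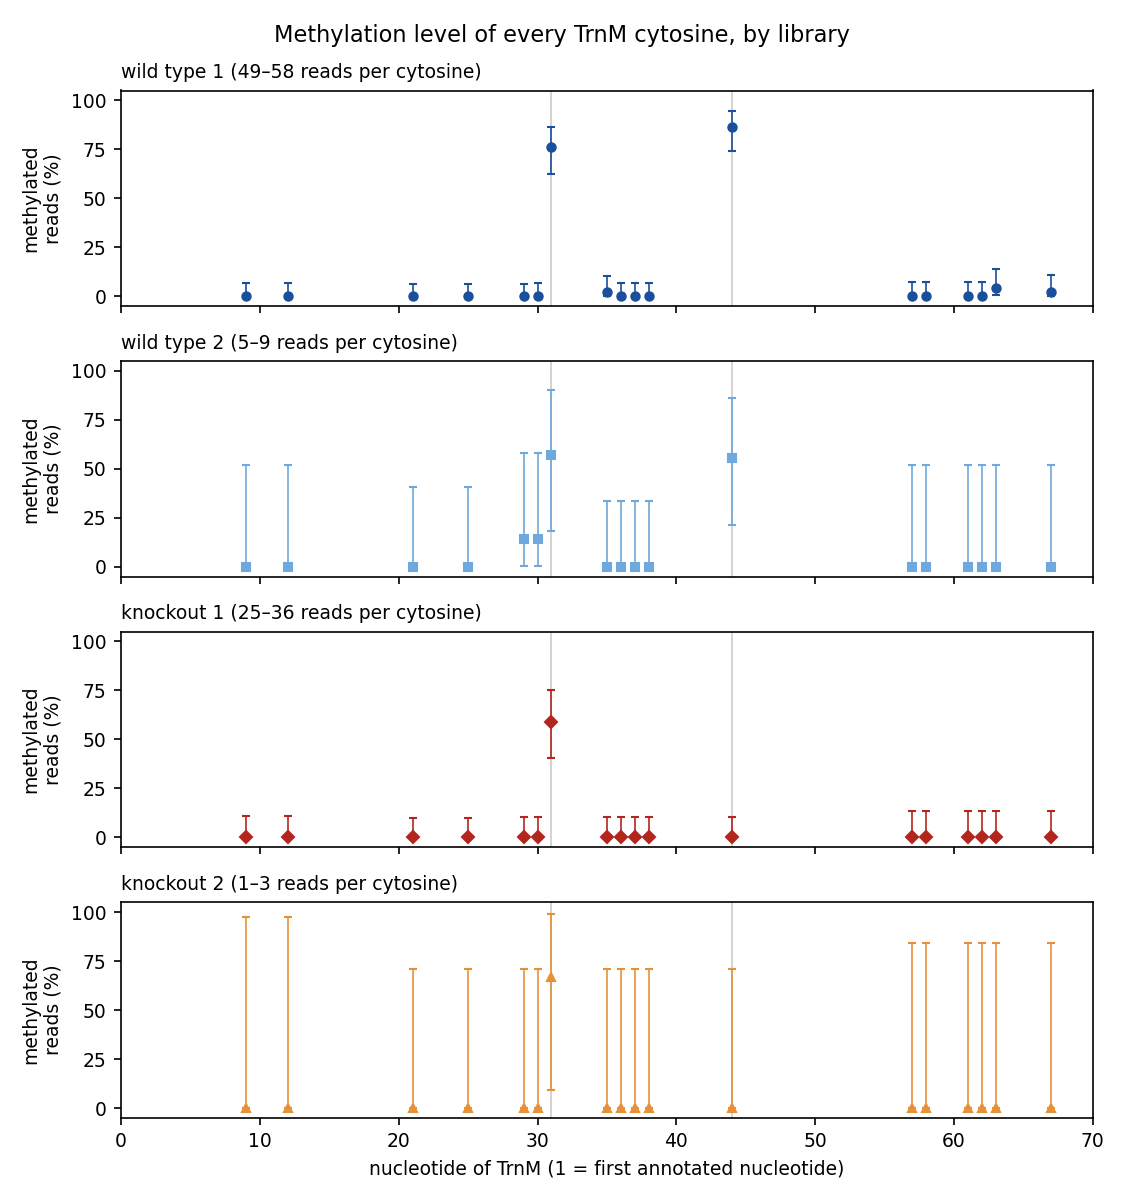
Methylated reads in percent (vertical axis) at each of the 18 TrnM cytosines by nucleotide of the gene (horizontal axis), 1 panel per library, with exact 95% binomial intervals as bars and grey lines at nucleotides 31 and 44. In wild type replicate 1 these nucleotides reach 75.9% and 86.5% while the other 16 stay at or under 4.08%, and in knockout replicate 1 only nucleotide 31 has methylated reads.

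Summed over the 16 cytosines, wild type replicate 1 had 4 methylated calls of 833 (0.480%, interval 0.131% to 1.22%) and wild type replicate 2 had 2 of 104 (1.92%, 0.234% to 6.77%). No call was methylated among 486 in knockout replicate 1, which allows 0.617% at 3 counts (exact upper bound 0.756%), or among 38 in knockout replicate 2, which allows 7.89% (exact upper bound 9.25%). The wild-type mean was 1.20% ± 1.02 (SD, n = 2) and the knockout mean 0. For comparison, 59 cytosines of mitochondrial messenger RNAs, each read 10 times or more in every library, had 0.203% methylated calls (interval 0.136% to 0.292%) in wild type replicate 1. Wild type replicate 2 had 0.0775% there (0.0334% to 0.153%). Knockout replicates 1 and 2 had 0.0799% (0.0488% to 0.123%) and 0.0809% (0.0404% to 0.145%), levels that lie within the limits of their 0 calls in TrnM. Both wild-type levels at the 16 cytosines lay above the messenger RNA levels, but rest on 4 and 2 methylated calls. The intervals overlapped in wild type replicate 1 and not in wild type replicate 2. Calls at neighbouring cytosines share reads and are not independent, so these intervals are too narrow.

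A fit across the whole table placed the TrnM counts beside all other cytosines. edgeR's quasi-likelihood test, with a call at a Benjamini-Hochberg adjusted p under 0.05 and a difference of at least 10 points, was run on the 482 cytosines whose reads summed to 10 or more in each genotype. All 18 TrnM cytosines entered it. It called 1 of the 18 lower in the knockout, nucleotide 44, where 0.622% of all tested cytosines (3 of 482) were called lower. It called none of the 18 higher, where 0% of all tested were called higher. Fisher's exact test and limma called 0 of the 18 and 0 of all 482 higher too. Since TrnM was picked with this contrast known, nothing is read from these counts. limma on log2 odds called 0 of the 18 lower, where it called 1 of all 482 lower. edgeR with a replicate block, a pairing that the labels do not state, also called 0 of the 18 lower, and 2 of all 482. No TrnM cytosine had 10 reads in every library.

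The sites nearest to nucleotide 44 in their summed levels, over 104 sense cytosines of 12 mitochondrial tRNA genes with that depth, were in the serine and histidine tRNAs. TrnS2 position 11646, in the tRNA that reads AGY serine codons, had 187 of 264 methylated reads in wild type and 1 of 156 in the knockout (70.8% and 0.641%), a distance of 11.2 points from TrnM nucleotide 44. TrnH position 11588 had 271 of 272 and 6 of 38 (99.6% and 15.8%), a distance of 23.7 points. Summed levels at TrnM nucleotide 44 were 82.0% (50 of 61) and 0 (0 of 36). The next was the wobble base of TrnM itself, 60.0 points away. These 3 likeness values are Euclidean distances over the wild-type and knockout levels and carry no test.

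Nucleotide 44 of TrnM lies 25 nucleotides before the last annotated base, as does the TrnS2 site, and the TrnH site lies 24 before it. Such a distance is not particular to these 3 cytosines. TrnS2 position 11647, also 24 before the last base, had a level of 0.769% over 260 summed wild-type reads and 0 over 155 knockout reads. The surroundings of the 3 cytosines are shown with the cytosine in capitals and 8 positions on either side, written as for the whole gene, from chrM:3880-3896, chrM:11580-11596 and chrM:11638-11654, plus strand:
TrnM: cccgnnnnCgnnggnnn
TrnH: ncngncnnCnggnnnnn
TrnS2: ncnngcnnCcnngnnnn
In each of the 3 the cytosine follows a pair of A or U bases. The same held for 33 of 83 tRNA cytosines with at least 10 reads per genotype (39.8%) and for 6 of the 18 in TrnM. TrnV and TrnL1 were left out of the 83, because some of their positions have no strand, and so was a cytosine at nucleotide 2 of TrnL2, which has no 2 bases before it. The wobble cytosine does not share this context, since it follows a pair of cytosines in the whole gene printed above.

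The wobble base of TrnM stood farther from its nearest neighbours. The nearest 3 in summed levels were TrnH 11588, TrnS2 11646 and TrnM nucleotide 44, at 50.8, 58.9 and 60.0 points. Between nucleotides 30 and 38 of the other tRNAs, 18 cytosines in 8 genes reached that depth. The highest of these was TrnS2 11646, the 34th nucleotide of the short serine tRNA. It is the site described above, 25 nucleotides before the last base, and arms were not placed for this tRNA. Among the other 17 the highest was TrnV position 1061, with 1 of 159 reads methylated over all libraries (0.629%).

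**Figure D3:**
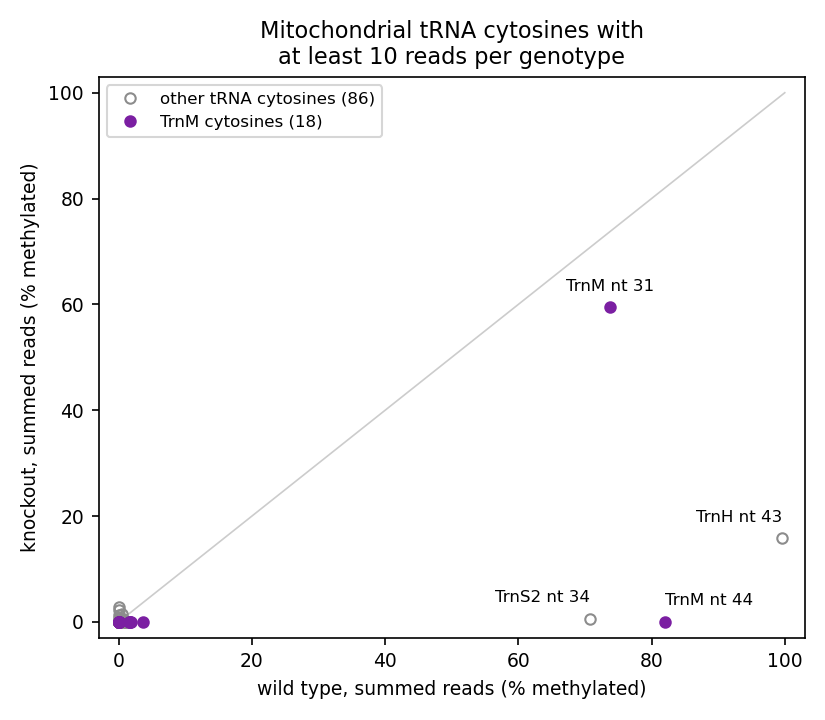
Methylation level from summed reads in wild type (horizontal axis, percent) and knockout (vertical axis, percent) for 104 mitochondrial tRNA cytosines, each with 10 or more reads per genotype, with the 18 TrnM cytosines filled and a grey line of equal levels. TrnM nucleotide 31 lies at 73.8% and 59.5%, TrnM nucleotide 44 at 82.0% and 0, and only TrnS2 nucleotide 34 and TrnH nucleotide 43 among the others reach 10% in either genotype.

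Read depth was compared as a separate measure. The gene was chosen from its levels and not from its depth, but a level needs reads, so depth is not fully independent of that choice. TrnM took 6.32% and 4.06% of the sense calls of the 22 mitochondrial tRNA genes in wild type replicates 1 and 2. It took 3.97% and 3.86% in knockout replicates 1 and 2, both below both wild-type libraries. The means were 5.19% ± 1.60 (SD, n = 2) and 3.92% ± 0.0831 (SD, n = 2). The exact permutation p (two-sided) was 0.333, the smallest that 2 against 2 libraries allow, so the design could not reach 0.05. The difference of -1.27 points shrank to -0.143 points without wild type replicate 1 and was -2.41 points without wild type replicate 2. As a share of all calls of the library the groups overlapped, with 1.04% and 0.264% in wild type and 0.556% and 0.00970% in the knockout (exact permutation p = 0.667). A share of calls cannot tell fewer molecules from less efficient capture or conversion of this tRNA.

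By summed calls TrnM ranked 5th among the tRNA genes in wild type replicate 1 and in both knockout libraries, and 7th in wild type replicate 2. Summed calls grow with the number of cytosines in a gene. Per cytosine, TrnM was read less than the mean of all sense tRNA cytosines in every library. That mean takes in genes without a read and very deep sites, such as TrnA position 5021 with 1341 summed wild-type reads. The mean depth of TrnM was 0.850 and 0.546 of it in wild type replicates 1 and 2. In knockout replicates 1 and 2 it was 0.534 and 0.518. The shares of tRNA calls rest on 939 of 14856 and 120 of 2957 calls in wild type replicates 1 and 2. In knockout replicates 1 and 2 they rest on 553 of 13916 and 44 of 1141. A read gives a call at each cytosine it covers, so the 44 calls come from at most 3 reads at any cytosine. All calls of the library came to 89915 and 45449 in wild type and to 99431 and 453470 in the knockout.

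Coverage along the gene was lowest at its 3′ end in the deeper library of each genotype. In wild type replicate 1 it was 53 reads at the first cytosine, 58 at nucleotides 21 and 25, and 49 from nucleotide 57 to the last. In knockout replicate 1 it was 32, 36 and 25 at the same places. Mean reads at the cytosines after nucleotide 38 over those before nucleotide 30 were 0.892 and 0.899 in wild type replicates 1 and 2, and 0.769 and 0.974 in the knockout ones. The ratio of reads at nucleotide 44 to reads at nucleotide 31 was 0.963 and 1.29 in wild type replicates 1 and 2 and 0.971 and 1.00 in knockout replicates 1 and 2. The means were 1.12 ± 0.228 (SD, n = 2) and 0.985 ± 0.0208 (SD, n = 2), with a two-sided exact permutation p of 1 (the smallest possible is 0.333). In knockout replicate 1 the methylated and the unmethylated cytosine were thus read at nearly the same depth.

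**Figure D4:**
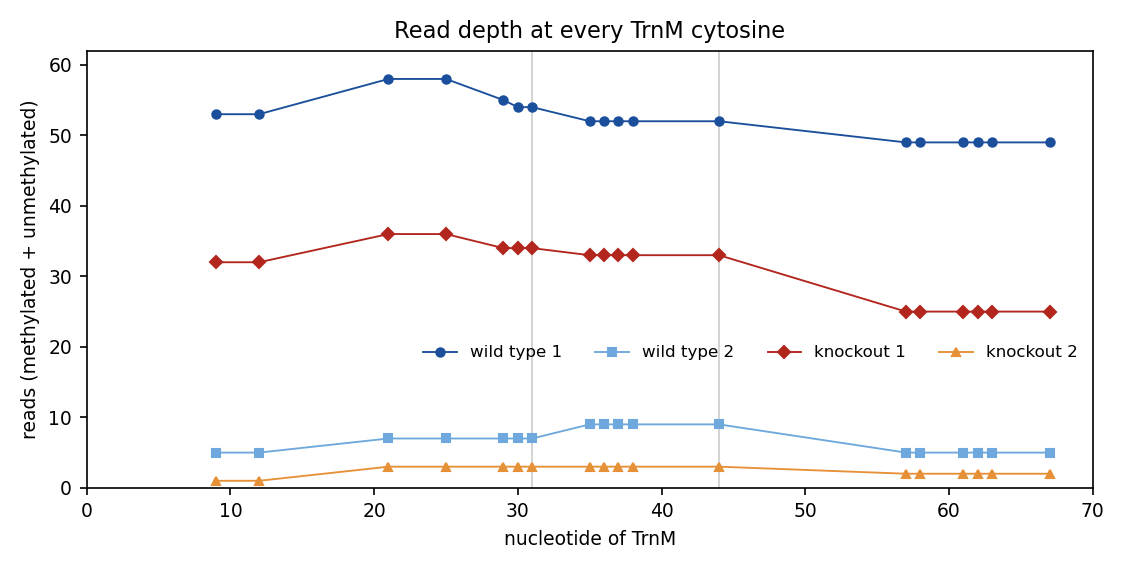
Reads, methylated plus unmethylated (vertical axis), at each of the 18 TrnM cytosines by nucleotide (horizontal axis) in the 4 libraries, with grey lines at nucleotides 31 and 44. Wild type replicate 1 runs from 49 to 58 reads, knockout replicate 1 from 25 to 36, wild type replicate 2 from 5 to 9 and knockout replicate 2 from 1 to 3.

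Plus-strand coverage fell to 0 between the outermost cytosines of TrnM and the nearest listed cytosines outside the gene. Where between them the reads ended cannot be seen, because plus-strand reads are counted at cytosines only. The nearest listed cytosine before the gene, position 3840, lies 5 nucleotides outside. The nearest after it, position 3920, lies 7 nucleotides outside in ND2, the gene of a subunit of respiratory complex I. Both had 0 reads in all 4 libraries, while the first and last cytosines of TrnM, positions 3853 and 3911, had 53 and 49 in wild type replicate 1. On the 5′ side 17 listed cytosines without a read separated TrnM from the nearest position with one, 3772 in TrnI. On the 3′ side 15 did, up to position 3962 in ND2. The 5′ stretch lies in TrnQ, a tRNA gene of the minus strand, so its plus-strand cytosines are antisense to that gene. The minus strand was read there, with 195 summed wild-type and 254 summed knockout reads at position 3819. On the minus strand the 13 listed positions inside TrnM had 0 calls in 3 libraries and 6 calls in knockout replicate 1.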

How the data were processed

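Mitochondria-enriched mouse liver RNA underwent ribosomal RNA depletion, DNase treatment and bisulfite conversion in 3 cycles (90 °C for 5 min, 60 °C for 1 h) before small RNA library preparation, per the labels' protocols. Trim Galore and Bismark are named in the submitters' processing notes, without versions, together with the build GRCh38, a human build, although the samples are mouse. The authors deposited counts: per the file headers, m5C and C reads per position and library, not normalized and not pooled. Gene limits came from RefSeq's GRCm38.p6 table. The table and this annotation share a numbering as far as the TrnM arms pair. Which strand is sense is textbook knowledge. No gene sequence of TrnM was at hand, so letters came from the table's strand column; the 27 positions without a strand lie outside TrnM.

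Levels, exact intervals and permutation tests used scipy 1.17.1, and Newcombe intervals statsmodels 0.14.6. The site test used edgeR 4.0.16 in R 4.3.3 (terms for library, methylation state and genotype by methylation state, dispersion without trend, no replicate block), checked on simulated reads. Alternatives were Fisher's exact test, limma 3.58.1 on log2((methylated + 0.5)/(unmethylated + 0.5)), a replicate block, other coverage and difference thresholds, a trended dispersion and leaving out each library. Every TrnM cytosine was named; other sites were the 3 nearest in summed levels to nucleotides 31 and 44, the nearest cytosines outside the gene and the highest between nucleotides 30 and 38 of other tRNAs; TrnV 1061 and the bases around the sites were added after values were seen. The members, lists and tests were chosen with earlier results of these data known.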

Additional observations from a re-analysis of the deposited data

How the results depend on the processing

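The count of TrnM cytosines called lower, 1 with edgeR, was 0 with limma on log2 odds and 0 with a replicate block in edgeR. Over all 482 tested cytosines these counts were 3, 1 and 2, and the cause was not tested. The labels number the libraries of both genotypes alike but do not say that a number marks a shared animal or batch, so the block is not a stated pairing. The TrnM count was 1 with Fisher's exact test, at 5 and 30 reads per genotype and without a coverage filter. It was also 1 at differences of 5 and 20 points and with a trended dispersion (range 1 to 1). Over all tested cytosines, 3 were called lower in each of these settings, except 5 at a difference of 5 points. Those tested numbered 681 at 5 reads, 268 at 30 reads, 1314 without a filter and 482 in the rest. At 30 reads, 12 TrnM cytosines were tested. Fits that leave 1 library in a genotype are not counted here. No TrnM cytosine could be tested with 10 reads in every library, without wild type replicate 1 or without knockout replicate 1, because too few reads were left. With both libraries of each genotype, the TrnM count called higher was 0 in each setting that could be run, and so was the count over all tested cytosines. The difference at nucleotide 31 ran from -13.2 to 5.60 points without single libraries and that at nucleotide 44 from -86.5 to -55.6. The genotype difference in the read ratio of nucleotide 44 to nucleotide 31, -0.139, turned to 0.0223 without wild type replicate 2, and ran from -0.300 to 0.0223 over the libraries left out. Depth limits every knockout value: knockout replicate 2 gives at most 3 reads at any TrnM cytosine.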

Other observations

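The levels at nucleotides 31 and 44 bound the share of molecules methylated at both, which the table does not record. If the reads at both cytosines sample the same molecules, the wild type replicate 1 levels of 75.9% and 86.5% require that at least 62.5% and at most 75.9% of molecules carried both. In wild type replicate 2 the bounds were 12.7% and 55.6%, from 7 and 9 reads. In knockout replicate 1 they were 0, since nucleotide 44 had 0 of 33 methylated reads while nucleotide 31 had 20 of 34. These bounds are arithmetic on the point levels and do not include counting error.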
